A study of Mus musculus with 6 samples.

Results

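Foxp3 and the 5 Ikaros family genes Ikzf1 to Ikzf5 were taken by symbol from the deposited tables of normalised counts and FPKM, and by Ensembl ID from the table of raw counts, 6 of the 37187 genes measured. The RNA came from regulatory T cells (Tregs), CD4 T cells that hold immune responses in check, sorted as CD4+CD25+GITR+ (with Foxp3+ also given in the label of the cell type) from the lymph nodes that drained a tumour. All mice carried B16.F10, a transplantable melanoma line, and the nodes were taken 14 days after 300000 of its cells had been placed under the skin. The 3 KO libraries (replicates 4, 5 and 6) came from il33-/- mice in a C57BL6 background, and the 3 WT libraries (replicates 1, 2 and 3) from C57BL6 mice. The comparison asks whether the lineage factors of Tregs differed when IL-33, a cytokine released by damaged tissue that Tregs read through the receptor ST2, was missing. The deleted exons, the age of the mice, any pooling of animals and whether WT mice were littermates are not stated in the labels, so p-values measure the spread between libraries, which may be technical.

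Foxp3 is the forkhead transcription factor that defines Tregs and holds their programme in place. The Ikaros family members are zinc finger proteins that bind DNA through a set of fingers near the start of the protein and pair with one another through fingers at its end. Ikaros (Ikzf1) is present in most lymphocytes, Helios (Ikzf2) marks many Tregs of thymic origin, Aiolos (Ikzf3) is abundant in mature B cells and also acts in T cells, Eos (Ikzf4) is a partner of Foxp3 in gene repression, and Pegasus (Ikzf5) is the most distant relative.

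In RNA of the KO sorts Ikzf3 was lower and Ikzf4 was higher than in RNA of the WT sorts. Foxp3, Ikzf1, Ikzf2 and Ikzf5 did not pass the test. Bulk RNA does not say which cells changed, and B cell markers were also found, at lower levels in KO. Ikzf3 passed in 16 of 20 other settings of the fit, and Ikzf4 in 9. Ikzf3 averaged 359.7 ± 30.5 CPM (counts scaled to the same library total) in KO and 458.2 ± 19.8 CPM in WT libraries, and Ikzf4 averaged 193.0 ± 19.9 CPM in KO and 154.2 ± 8.55 CPM in WT (SD, n = 3 each). Both genes passed the quasi-likelihood test of edgeR (threshold 0.05, p-values adjusted by Benjamini and Hochberg's method over all 13626 genes tested), at an adjusted p of 0.00754 for Ikzf3 and 0.0222 for Ikzf4. All 6 members passed the filter on low counts, and 2 of 6 were called, where the same test called 6.50% of all genes tested (3.68% higher and 2.83% lower in KO). With 6 genes such a count is a description. On simulated data the share of false calls of this test was above 0.05 in every draw.

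Total counts ran from 18071928 to 21165063 per library. Il33, the targeted gene, had 3, 8 and 2 counts in KO replicates 4, 5 and 6 and 7, 0 and 9 counts in WT replicates 1, 2 and 3, too few to be tested or to check the labels. The label of a CD4+ Treg was matched by its defining markers, with Cd4 at 559.0 to 599.0 CPM in KO and 547.0 to 625.0 CPM in WT, and Il2ra, which encodes CD25, at 1020.0 to 1170.0 CPM in KO and 883.0 to 1080.0 CPM in WT. Tnfrsf18, which encodes GITR, had 105.0 to 111.0 CPM in KO and 91.9 to 99.3 CPM in WT. Markers of other cells were detected too. Of 19 B cell markers listed, 18 were found and none of these was at 0, and they summed to 450.5 to 703.9 CPM in KO and to 1334 to 2612 CPM in WT, with WT replicate 2 the lowest of WT. Cd72 alone gave 558.3 CPM of the 1334 CPM in WT replicate 2, against 86.1 and 73.0 CPM in WT replicates 1 and 3. Without it the other 17 summed to 409.3 to 660.7 CPM in KO and to 2526, 775.5 and 1952 CPM in WT replicates 1, 2 and 3, so that WT replicate 2 lay close to KO. All 18 were lower in KO, with a median log2 fold change of -1.96. Of these 0 passed edgeR's test, 17 had an unadjusted p under 0.05, and 14 fell by DESeq2 and 7 by limma-voom. Markers of dendritic and plasmacytoid cells summed to 91.3 to 104.4 CPM in KO and 131.9 to 136.2 CPM in WT, and those of CD8 T and NK cells to 45.5 to 56.2 CPM in KO and 56.8 to 65.2 CPM in WT. The sums of plasma cell, monocyte and macrophage, conventional CD4 T cell and neutrophil markers overlapped between the groups. Irf4, Xbp1 and Prdm1 gave most of the plasma cell sum. In that list Sdc1 fell in KO (edgeR adjusted p = 0.00905), and Mzb1 lay below WT without passing (edgeR adjusted p = 0.104). Siglech and Tcf4 of the dendritic list fell too (edgeR adjusted p = 0.0313 and 0.0278). Cd68 of the monocyte list rose (edgeR adjusted p = 0.0104). In the conventional CD4 T cell list Cd40lg rose and Dapl1 fell. Stromal markers summed to 245.5 to 256.4 CPM in KO and 210.1 to 229.1 CPM in WT. Of these sums Pecam1 alone gave 241.7 to 252.5 CPM in KO and 206.4 to 226.2 CPM in WT. Melanoma markers summed to 31.9 to 36.8 CPM in KO and 22.9 to 30.7 CPM in WT. Of these sums Pmel alone gave 28.74 to 33.78 CPM in KO and 20.69 to 27.45 CPM in WT. Pecam1 and Pmel both rose by edgeR's test (adjusted p = 0.0427 and 0.0376). The pigment genes Tyr, Tyrp1 and Dct had 0 counts in all libraries. In bulk RNA fewer cells of a type and less RNA per cell cannot be told apart.

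**Figure D1:**
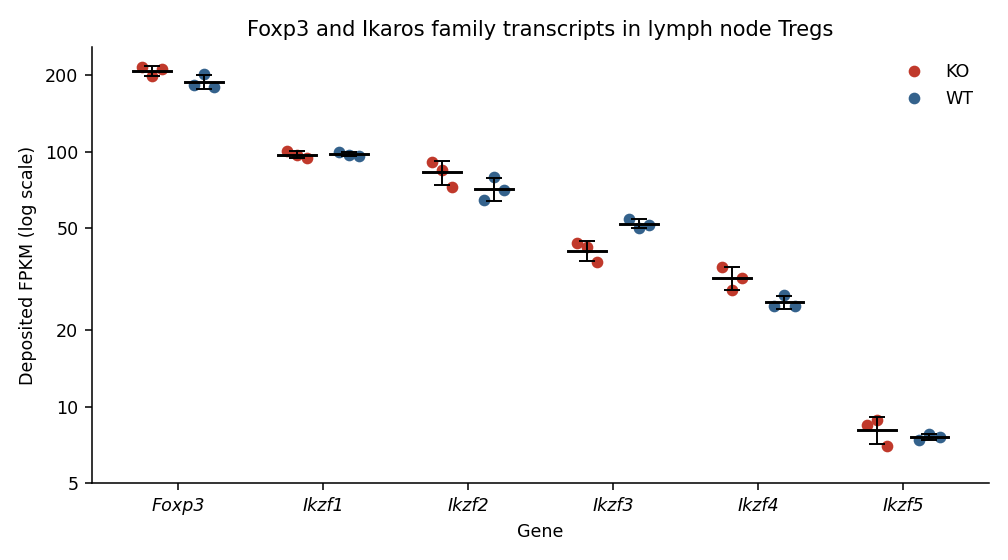
Deposited FPKM of the 6 genes on a log axis, with 1 point per library, the mean as a bar and the SD as whiskers (n = 3 each), KO in red and WT in blue. Foxp3 lies highest, at 179.4 to 213.9 FPKM, and Ikzf5 lowest, at 7.02 to 8.84 FPKM, and the groups stand apart for Ikzf3 and Ikzf4.

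On the FPKM scale, which divides by gene length and so allows genes to be compared, the order of levels was the same in all 6 libraries. It ran from Foxp3 through Ikzf1, Ikzf2, Ikzf3 and Ikzf4 to Ikzf5. Foxp3 was 2.13 times the level of Ikzf1 in KO and 1.92 times in WT, and it ranked between 162 and 210 among all genes by FPKM in the 6 libraries. No 2 neighbours in the order overlapped within a group. The closest pairs were Ikzf1 and Ikzf2 in KO, at a ratio of means of 1.17, and Ikzf3 and Ikzf4 in KO, at 1.28, where the lowest Ikzf3 library had 36.8 FPKM and the highest Ikzf4 library 35.3 FPKM. In WT the same pair lay 2.03 times apart. The sources used here do not give the lengths behind the deposited FPKM. With exon lengths of GENCODE M21 in their place, Ikzf3 came before Ikzf2 in WT replicate 1, at 54.8 against 52.6 CPM per kb, and the order was otherwise as before.

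Foxp3 (ENSMUSG00000039521, chromosome X, 7573644 to 7595245, plus strand of GRCm38) had 213.9, 197.3 and 210.5 FPKM in KO replicates 4, 5 and 6, against 182.2, 201.0 and 179.4 FPKM in WT replicates 1, 2 and 3. WT replicate 2 was above KO replicate 5, so the groups overlapped. The fold change KO over WT was 1.11, a log2 fold change of 0.15 (SE 0.06), with a 95% interval from 0.02 to 0.27 and an edgeR adjusted p of 0.160 (unadjusted p = 0.0248). Foxp3 did not pass in any of 20 other settings, where its log2 fold change ran from -0.04 to 0.20. The value of -0.04 came from the fit that takes the B cell score of each library, the mean log2 CPM of the 18 B cell markers, as a covariate. That score was 4.22 to 4.955 in KO and 5.377 to 6.875 in WT. Because the groups did not overlap in it, this fit cannot tell the score apart from group. It called 44 genes in all, against 886 without the covariate, so a call lost in it does not show a cause.

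The gene of Flicr, a long noncoding RNA known in mice to lower Foxp3 expression, runs along the same strand across the start of Foxp3 (7573600 to 7581027), and 853 of its 3583 exonic bases are also Foxp3 exon. Flicr had 12.4, 11.4 and 12.9 CPM in KO replicates 4, 5 and 6 and 14.1, 15.9 and 13.7 CPM in WT replicates 1, 2 and 3. All KO values lay below all WT values, as for 12.6% of all genes tested, but the gene did not pass (log2 fold change -0.25, SE 0.11, edgeR adjusted p = 0.209). Set against Foxp3 in the same library, a ratio chosen after its values were seen, there were 14.5, 14.4 and 15.2 Flicr reads per 1000 Foxp3 reads in KO and 19.4, 19.8 and 19.1 in WT. The ratio in KO was 0.757 times that in WT, a log2 difference of -0.40 between groups whose SDs were 0.041 in KO and 0.027 in WT. An exact two-sided permutation test gave p = 0.1, the smallest that 3 libraries against 3 can give. The sources used here do not give how shared exonic bases were counted, so reads of the 2 transcripts may be split between them. With each library left out the log2 difference was -0.43 to -0.39. Its sign could not change, since the groups did not overlap.

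RefSeq's promoter table (GRCm38.p6) matched 3 of the 6 genes, Foxp3, Ikzf1 and Ikzf5. Both Foxp3 windows lie inside the span of Flicr, and the upstream one, at chrX:7579426-7579725 on the plus strand, is shown because it holds the motif. The Ikzf5 window, at chr7:131410429-131410728 on the minus strand, is shown because the neighbouring gene Acadsb starts inside it, at 131410601, on the opposite strand. Capitals mark GGGAA, the core recognised by Ikaros family fingers, or its reverse complement TTCCC.
Foxp3: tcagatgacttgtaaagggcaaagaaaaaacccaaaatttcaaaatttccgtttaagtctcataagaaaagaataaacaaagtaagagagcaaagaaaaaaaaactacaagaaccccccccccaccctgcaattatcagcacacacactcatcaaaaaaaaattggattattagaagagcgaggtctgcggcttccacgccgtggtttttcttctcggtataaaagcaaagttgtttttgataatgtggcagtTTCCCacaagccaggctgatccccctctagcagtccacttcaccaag
Ikzf5: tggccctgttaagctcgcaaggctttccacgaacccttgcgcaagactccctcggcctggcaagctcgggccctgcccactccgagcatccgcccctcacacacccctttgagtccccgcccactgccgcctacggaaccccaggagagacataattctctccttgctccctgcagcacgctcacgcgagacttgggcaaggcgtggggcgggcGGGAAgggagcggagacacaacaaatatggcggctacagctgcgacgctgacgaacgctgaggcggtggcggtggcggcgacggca
Both windows held 1 match over the 2 strands, the other Foxp3 window of the table held 0, and the 2 Ikzf1 windows held 0 and 2. GGGAA or its reverse complement was in 62.7% of the 32851 promoter windows of the table. The forkhead motif TGTTTAC, searched on both strands, had 0 matches in the windows of the 3 genes and was in 3.65% of all windows. The Foxp3 window holds 40.7% G and C and the Ikzf5 window 65.7%.

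Because the Ikaros genes are paralogs, the sequence they share was measured in GENCODE M21 transcripts. The longest exact coding stretches that Ikzf3 shares with Ikzf1 and Ikzf2, and that Ikzf4 shares with Ikzf1, are shown, since Ikzf3 and Ikzf4 were the genes called. Capitals mark in-frame TGT or TGC codons, which encode the cysteines that hold zinc in these fingers.
Ikzf1 and Ikzf3: gatccctttgagTGTaacatgTGTgg
Ikzf1 and Ikzf4: gactccacagatacagagagcaac
Ikzf2 and Ikzf3: atgatggaccaagccatcaa
The longest of these is 26 bases, between Ikzf1 and Ikzf3, and of the 3 it alone holds such codons. Across whole transcripts the longest shared run was 32 bases, between Ikzf2 and Ikzf4. Of the 50-base windows in each member's longest transcript, 0 occurred in another member.

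Ikzf1 (ENSMUSG00000018654, chromosome 11, 11685003 to 11772926, plus strand), the founding member, did not pass the test. It had 100.7, 96.8 and 94.6 FPKM in KO replicates 4, 5 and 6, against 99.8, 97.1 and 96.3 FPKM in WT replicates 1, 2 and 3. The ranges lay on top of each other. Its log2 fold change was -0.0014 (SE 0.05), with a 95% interval from -0.11 to 0.11 and an edgeR adjusted p of 0.992. The interval leaves room for a change of that size in either direction. Its CPM varied by 2.91% of the mean among KO and 1.87% among WT libraries, the least of the 6 genes in both groups, against 0.93% from counting alone.

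Ikzf2 (ENSMUSG00000025997, chromosome 1, 69531214 to 69687245, minus strand), which encodes Helios, varied widely within both groups. It had 91.1, 84.7 and 72.9 FPKM in KO replicates 4, 5 and 6, against 64.6, 79.3 and 70.5 FPKM in WT replicates 1, 2 and 3. KO replicate 6 lay below WT replicate 2, so the groups overlapped. The log2 fold change was 0.22 (SE 0.09), with a 95% interval from 0.01 to 0.43 and an edgeR adjusted p of 0.214. It passed without WT replicate 2, at a log2 fold change of 0.30 and an edgeR adjusted p of 0.0398, and with no filter on low counts, at an edgeR adjusted p of 0.00604. Per read of Foxp3 it did not separate the groups, with 1.01, 1.01 and 0.818 reads in KO and 0.837, 0.931 and 0.929 reads in WT.

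Ikzf3 (ENSMUSG00000018168, chromosome 11, 98464902 to 98546031, minus strand), which encodes Aiolos, fell in KO. It had 43.6, 42.1 and 36.8 FPKM in KO replicates 4, 5 and 6, against 54.6, 50.3 and 51.6 FPKM in WT replicates 1, 2 and 3. All 3 KO libraries lay below all 3 WT libraries, as for 12.6% of all genes tested. The fold change KO over WT was 0.785, a log2 fold change of -0.35 (SE 0.07), with a 95% interval from -0.49 to -0.21. The call held with each single library left out, at log2 fold changes from -0.40 to -0.28 and edgeR adjusted p-values from 0.00354 to 0.0422.

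Aiolos is also a B cell factor, and Ikzf3 and the B cell markers were both lower in KO. Without Cd72, WT replicate 2 had the fewest B cell marker reads of WT, 775.5 CPM, near the 660.7 CPM of KO replicate 5. Ikzf3 in that library was 440.8 CPM, below the 479.7 and 454.0 CPM of WT replicates 1 and 3 and above the 383.6, 370.0 and 325.4 CPM of KO replicates 4, 5 and 6. Ikzf1, which B cells also express, had a log2 fold change of -0.0014. B cells were not measured on their own here, so this value does not bear on the fall of Ikzf3. Without WT replicates 1 and 3, a fit in which the lone WT library takes its spread from KO, the log2 fold change of Ikzf3 was -0.29 and did not pass (edgeR adjusted p = 0.185). Once the B cell score was a covariate the log2 fold change of Ikzf3 was -0.18 (edgeR adjusted p = 0.690), and -0.21 with Cd72 left out of that score (edgeR adjusted p = 0.515). Neither score overlapped between the groups, so these fits cannot tell score and group apart. The part of B cell RNA in the fall of Ikzf3 was not tested.

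**Figure D2:**
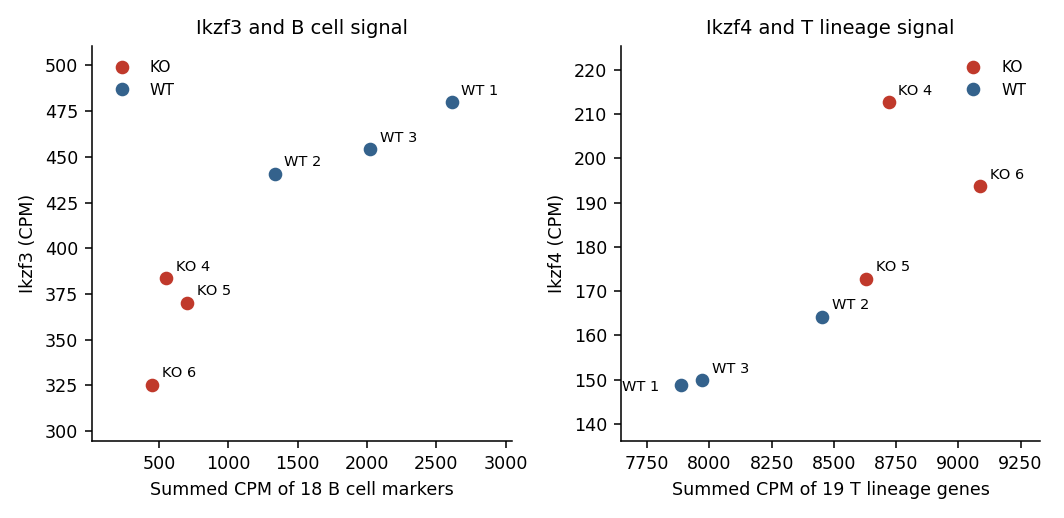
CPM of Ikzf3 against the summed CPM of 18 B cell markers (left), and CPM of Ikzf4 against the summed CPM of 19 T lineage genes (right), with 1 labelled point per library, KO in red and WT in blue. Cd72 makes up 558.3 of the 1334 CPM of WT replicate 2. KO libraries hold less B cell signal (450.5 to 703.9 CPM) and less Ikzf3, and more T lineage signal (8630 to 9088 CPM) and more Ikzf4, than WT libraries.

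Ikzf4 (ENSMUSG00000002578, chromosome 10, 128630843 to 128645991, minus strand), which encodes Eos, rose in KO. It had 35.3, 28.7 and 32.0 FPKM in KO replicates 4, 5 and 6, against 24.7, 27.3 and 24.9 FPKM in WT replicates 1, 2 and 3. All 3 KO libraries lay above all 3 WT libraries, as for 13.7% of all genes tested, with KO replicate 5 and WT replicate 2 closest to each other. Its log2 fold change KO over WT was 0.32 (SE 0.07), with a 95% interval from 0.16 to 0.48. The call was lost without KO replicate 4 (edgeR adjusted p = 0.0522), KO replicate 6 (0.0912), WT replicate 1 (0.0871) or WT replicate 3 (0.111), at log2 fold changes from 0.25 to 0.32. Without WT replicates 1 and 3 together the log2 fold change of Ikzf4 was 0.24. The call was also lost once the B cell score, which did not overlap between the groups, was a covariate (0.12, edgeR adjusted p = 0.850).

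T lineage genes were higher in KO together with Ikzf4, and their part in its rise was not tested. The 19 on the list summed to 8630 to 9088 CPM in KO and 7884 to 8452 CPM in WT, with a median log2 fold change of 0.115. By edgeR's test 4 of them rose (21.1%, beside 3.68% of all genes tested), on a list chosen with earlier results of these data known. Scaling each library to these genes shifted the median log2 fold change of all genes by -0.12. On that scale Ikzf4 was at 0.20 (edgeR adjusted p = 0.0903), Foxp3 at 0.03 and Ikzf3 at -0.47 (edgeR adjusted p = 0.00591). Relative to the shifted median they were at 0.32, 0.15 and -0.35. These repeat the values with TMM factors by construction, since scaling shifts all genes by nearly the same amount. With T lineage scaling the share of genes called lower grew, to 293 higher and 1330 lower, against 501 higher and 385 lower with TMM factors.

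Ikzf5 (ENSMUSG00000040167, chromosome 7, 131388652 to 131410521, minus strand), which encodes Pegasus, was the lowest and least deeply counted member. It had 8.44, 8.84 and 7.02 FPKM in KO replicates 4, 5 and 6, against 7.42, 7.83 and 7.57 FPKM in WT replicates 1, 2 and 3. The KO libraries spread on both sides of WT. The log2 fold change was 0.09 (SE 0.09), with a 95% interval from -0.09 to 0.28 and an edgeR adjusted p of 0.590, and it was -0.02 when libraries were scaled to T lineage genes. Its 672 to 910 counts per library give a counting error of about 3.6%. Of its 5721 exonic bases 4652 also lie in exons of Pstk on the opposite strand, and without knowledge of strand use reads of the pair cannot be told apart. For Pstk the log2 fold change was 0.02 (SE 0.11) at an edgeR adjusted p of 0.946.

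**Figure D3:**
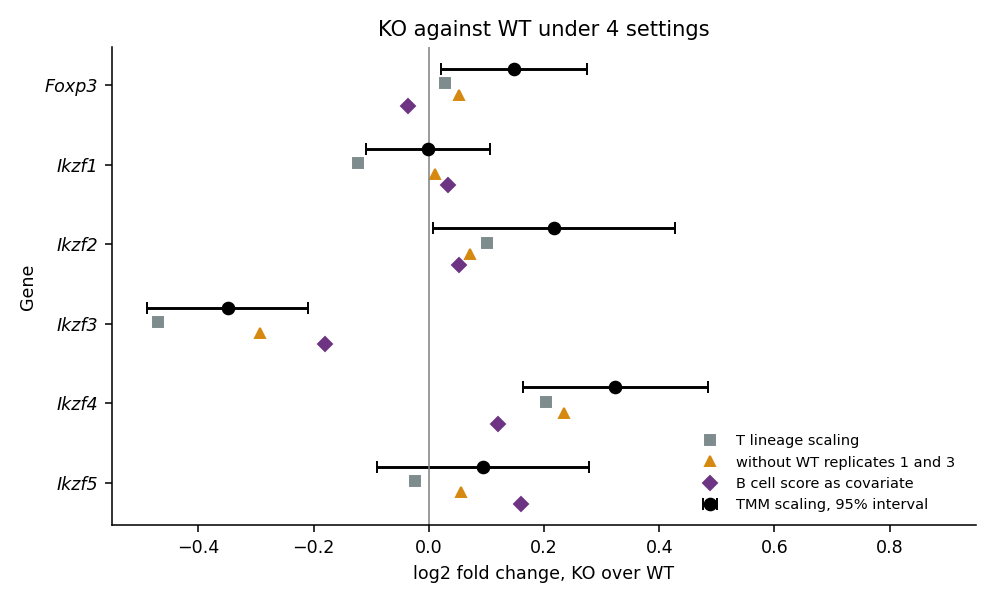
Log2 fold change KO over WT of each gene with TMM scaling (black, whiskers for the 95% interval), with libraries scaled to T lineage genes (grey squares), without WT replicates 1 and 3 (orange triangles) and with B cell score as covariate (purple diamonds). Ikzf3 lies below 0 and Ikzf4 above 0 under all 4 settings, while Foxp3, Ikzf1 and Ikzf5 lie on both sides of 0.

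Within a library, ratios between members do not depend on how libraries are scaled. There were 0.448, 0.469 and 0.383 Ikzf3 reads per Foxp3 read in KO replicates 4, 5 and 6, against 0.657, 0.549 and 0.631 in WT replicates 1, 2 and 3. The KO ratio was 0.707 times the WT ratio. There were 0.248, 0.219 and 0.228 Ikzf4 reads per Foxp3 read in KO, against 0.204, 0.204 and 0.208 in WT, 1.13 times as many in KO. Neither pair of groups overlapped, and both had p = 0.1 in an exact two-sided permutation test (0.25 adjusted over the 5 ratios to Foxp3), the smallest that 3 libraries against 3 can give. The ratios of Ikzf1, Ikzf2 and Ikzf5 to Foxp3 overlapped between the groups, with log2 differences of -0.15, 0.07 and -0.06 and exact permutation p-values of 0.2, 0.6 and 0.8.

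**Figure D4:**
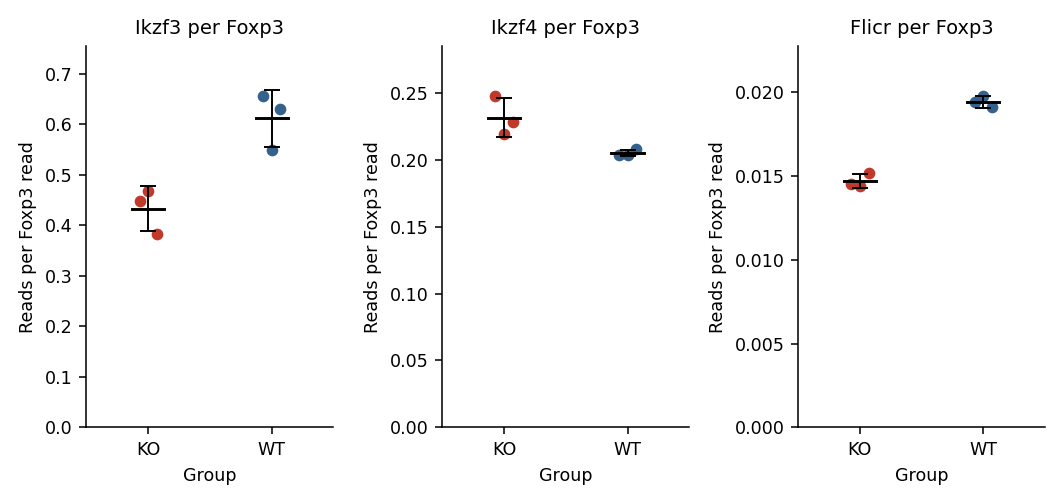
Reads of Ikzf3, Ikzf4 and Flicr per Foxp3 read in each library, KO left of WT, with the mean as a bar and the SD as whiskers (n = 3 each) on axes that start at 0. KO lies below WT for Ikzf3 and Flicr and above WT for Ikzf4, with no overlap.

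Ikzf3 held a smaller share of the family in KO, with no overlap between the groups. It made up 15.6%, 16.1% and 15.1% of the summed Ikaros family FPKM in KO replicates 4, 5 and 6, against 21.7%, 19.2% and 20.6% in WT replicates 1, 2 and 3. Ikzf4 made up 12.3 ± 1.1% in KO and 10.1 ± 0.32% in WT, Ikzf2 31.7 ± 1.5% in KO and 28.0 ± 2.3% in WT, and Ikzf1 37.3 ± 1.4% in KO and 38.4 ± 1.3% in WT (SD, n = 3 each). The sum itself was 261.3 ± 18 FPKM in KO and 254.6 ± 6.28 FPKM in WT, a difference smaller than the spread. Of the 10 ratios between Ikaros members 5 did not overlap between the groups, the 4 that contain Ikzf3 and Ikzf1 over Ikzf4. Those 4 share the Ikzf3 counts and so are not separate results. Of all single genes tested 26.3% did not overlap, and the share among pairs of genes was not computed. The widest was Ikzf3 over Ikzf4, with 1.80, 2.14 and 1.68 reads per read in KO and 3.22, 2.69 and 3.03 in WT (log2 difference -0.67). Each of the 5 had p = 0.1 in an exact permutation test, and 0.2 after adjustment over the 10.

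**Figure D5:**
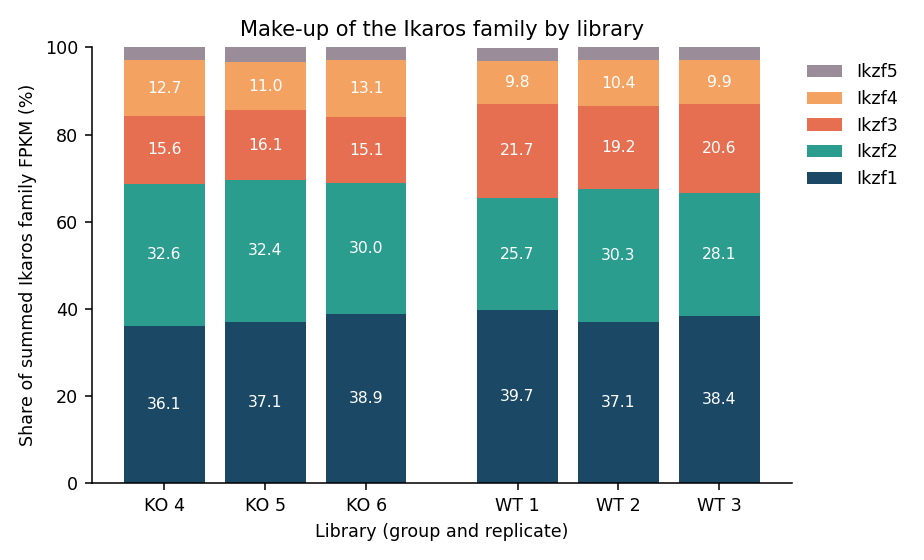
Share of each Ikaros gene in the summed FPKM of the 5 genes, as stacked bars that reach 100% in each library, KO on the left and WT on the right. The Ikzf3 share lies between 15.1% and 16.1% in KO and between 19.2% and 21.7% in WT.

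The 6 patterns across libraries were compared by the root-mean-square difference of log2 CPM, each centred on its own mean over the 6 libraries. Foxp3 was nearest to Ikzf1 and Ikzf4, both at 0.101, and farthest from Ikzf3, at 0.277. The measure is not scaled to the spread of each gene, so a flat gene lies near any gene that varies little. Centred values of Ikzf1 ran only from -0.0357 to 0.0455, against -0.134 to 0.118 for Foxp3. Their small difference therefore does not show a shared pattern. Ikzf3 and Ikzf4 were the least alike pair, at 0.36. Among the other 8787 protein-coding genes with at least 10 CPM on average, those most like Foxp3 were Zfp54, Zfp658 and Pgap3 (0.0242 to 0.0268). Those most like Ikzf3 were 9930111J21Rik2, Ipo13 and Btaf1 (0.0365 to 0.0427), and those most like Ikzf4 were Tmem86b, Lta and Rps6kc1 (0.0407 to 0.0567). For Ikzf1 they were Arhgap15, Dhx9 and Orc3, for Ikzf2 Camsap2, Kif1b and Twsg1, and for Ikzf5 Npat, Haus2 and Pggt1b.

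Genes that act on Foxp3 moved in both directions. Of 21 listed transcription factors and cofactors that induce or maintain Foxp3, 5 rose, 2 fell and 14 did not pass (23.8% and 9.52%, beside 3.68% and 2.83% of all genes tested). The list was chosen with earlier results of these data known, so these shares are a description. The median log2 fold change was 0.07, against 0.00 for all genes tested, and -0.05 with T lineage scaling. Kmt2d, a histone methyltransferase that primes Foxp3 enhancers, fell to 868.1 ± 91.4 CPM in KO, against 1115.0 ± 41.8 CPM in WT (SD, n = 3 each), and lost its call without KO replicate 6 (edgeR adjusted p = 0.055). Gata3, which Tregs use in barrier tissues, rose to 138.7 ± 9.91 CPM in KO, against 112.1 ± 8.36 CPM in WT (SD, n = 3 each, edgeR adjusted p = 0.0206). Nr4a1 and Nr4a2, nuclear receptors induced by the T cell receptor, rose by 1.05 (SE 0.17) and 2.11 (SE 0.32), at edgeR adjusted p-values of 0.0331 and 0.0370. With 1 library left out, the number risen was 0 without KO replicate 5 or WT replicate 3, 2 without KO replicate 4 or KO replicate 6, and 3 without WT replicate 1 or WT replicate 2. The number fallen was 0 without KO replicate 6 and 1 or 2 without any other library. Once the B cell score, which did not overlap between the groups, was a covariate, 0 rose and 0 fell, in a fit that called 44 genes in all. Gata3, Nr4a1 and Nr4a2 each lost their call without any 1 of 4 libraries, with highest edgeR adjusted p-values of 0.106, 0.124 and 0.133.

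Enzymes that write, remove or read DNA methylation at the Foxp3 locus showed no call. Of 8 listed 0 passed edgeR's test, beside 6.50% of all genes tested. Of these 8, 1 had an unadjusted p under 0.05, and DESeq2 and limma-voom also called 0. With T lineage scaling 1 fell, Tet3 (edgeR adjusted p = 0.036), and 1 fell with no low-count filter or without KO replicate 4. The lowest p belonged to Tet3, at 287.1 ± 25.1 CPM in KO and 324.4 ± 21.4 CPM in WT (SD, n = 3 each, edgeR adjusted p = 0.160), and Dnmt3b, at 15.7 ± 0.0987 CPM in KO and 17.4 ± 0.728 CPM in WT (edgeR adjusted p = 0.427). Of 18 partners and modifiers of the Foxp3 protein 1 rose, 0 fell and 17 did not pass. The share risen was 5.56%, near the 3.68% of all genes tested. The gene that rose was Pim1, a kinase, at 633.5 ± 41.9 CPM in KO and 460.7 ± 48.9 CPM in WT (SD, n = 3 each, edgeR adjusted p = 0.00597). Pim1 lost its call once the B cell score, which did not overlap between the groups, was a covariate (edgeR adjusted p = 0.553). Without WT replicates 1 and 3 its log2 fold change was 0.314. Of 23 corepressor and degradation partners of the Ikaros family, among them the NuRD complex and cereblon, 0 passed edgeR's test, beside 6.50% of all genes. Of these 23, 1 had an unadjusted p under 0.05, and DESeq2 and limma-voom called 0. With T lineage scaling 3 fell, among them Ctbp1 and Rbx1 (edgeR adjusted p = 0.024 and 0.0376). Its lowest p belonged to Ctbp1, at 228.2 ± 1.73 CPM in KO and 248.3 ± 11.3 CPM in WT (SD, n = 3 each, edgeR adjusted p = 0.202), and Rbx1, at 39.5 ± 1.93 CPM in KO and 43.4 ± 0.482 CPM in WT (edgeR adjusted p = 0.269).

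Some genes that Foxp3-expressing cells switch on were higher in KO. Of 25 listed, 6 rose, 0 fell and 19 did not pass, and their median was 0.187 on the log2 scale. Nrp1, a neuropilin found on Tregs from the thymus, Ctla4, an inhibitory receptor, Tnfrsf9, a costimulatory receptor, and Entpd1, which breaks down extracellular ATP, rose by log2 fold changes of 0.45, 0.53, 0.43 and 0.35, at edgeR adjusted p-values of 0.00145, 0.00220, 0.00338 and 0.0209. Entpd1 lost its call without any 1 of 4 libraries (highest edgeR adjusted p = 0.106), while the other 3 passed with each single library left out. T lineage genes were higher in KO too, with 21.1% of that list risen, and with T lineage scaling 4 of the 25 rose, 1 fell and the median was 0.07. The part of T lineage RNA in these counts was not tested. Leaving out KO replicate 4 gave 7 risen genes, leaving out WT replicate 2 gave 13, and leaving out any other library gave 3. Without WT replicates 1 and 3 together the median of the 25 was 0.108. The number risen was 0 once the B cell score, which did not overlap between the groups, was a covariate. Of 17 genes that Foxp3-expressing cells hold down, 2 rose, 3 fell and 12 did not pass, with a median of -0.06. Ifng, the cytokine of type 1 responses, rose to 11.2 ± 0.898 CPM in KO, against 4.18 ± 0.744 CPM in WT, and Cd40lg, a ligand of helper T cells, rose by a log2 fold change of 0.39. Pde3b, a phosphodiesterase that Foxp3 represses, fell to 19.6 ± 3.65 CPM in KO, against 36.9 ± 1.74 CPM in WT (SD, n = 3 each), and Dapl1, a gene of naive T cells, fell by a log2 fold change of 0.81. The edgeR adjusted p-values of these 4 genes were 0.000226, 0.00785, 0.00138 and 0.00845. Once the B cell score was a covariate 1 of the 17 rose, Ifng, and 0 fell, with edgeR adjusted p-values of 0.485 for Cd40lg, 0.274 for Pde3b and 0.340 for Dapl1. Without WT replicates 1 and 3 together 1 rose and 1 fell. As shares, 24.0% of the genes switched on with Foxp3 and 11.8% of those held down rose, beside 3.68% of all genes tested, and 0% and 17.6% fell, beside 2.83%. Both lists were chosen with earlier results of these data known, so these shares describe the lists and are not separate support.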

How the data were processed

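RNA was sequenced from sorted Tregs in 6 libraries, 3 KO and 3 WT. STAR 2.4.2a, bcl2fastq and DESeq2 were used with GRCm38, per the submitters' processing notes. Which program counted reads, whether it used strand, which annotation it read and which lengths entered the FPKM were not given in the sources used here. Raw counts were deposited per Ensembl gene. The deposited normalised counts, a signal per gene symbol, were the raw counts over a single library factor (at least 99.867% of genes above 50 counts, within 1e-06). The deposited FPKM were these values over a fixed constant of each gene (100.0% of 9356 genes). Columns left unused numbered 0. GENCODE M21, on the same build, gave symbols and positions for 35412 of 37187 IDs; IDs without a match held at most 0.308% of a library's counts and were tested as well.

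The test was edgeR 4.0.16 (R 4.3.3) on raw counts: filterByExpr, TMM factors, robust quasi-likelihood fit, two-sided, Benjamini-Hochberg adjustment over 13626 genes, threshold 0.05. CPM use TMM factors. Standard errors and 95% intervals were derived from the F statistic. Exact permutation tests over libraries were run on ratios. On simulated data the test recovered the simulated fold sizes, and the share of false calls was above the nominal threshold in every draw. Library pairs of a group differed beyond sampling noise (chi-square per degree of freedom 5.16 to 14.6). Counting errors cover reads only.

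Alternatives were DESeq2 1.42.0, limma-voom (limma 3.58.1), RLE, upper-quartile and T lineage scaling, other filters (none, or at least 1 CPM in 3 libraries), limma with trend on logged values (FPKM plus 1 or 0.1, normalised count plus 1), thresholds of 0.01 and 0.10, leaving out libraries, and the B cell score as a covariate (also without Cd72, an alternative chosen after seeing the data). Genes and lists were chosen with earlier results of these data known. Named were the 6 genes, the called genes of each list, lowest p first and at most 4 (the lowest 2 of a list without calls), the 3 genes nearest in pattern to each member, genes whose exons overlap a member and were counted, and the nearest tested neighbours.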

Additional observations from a re-analysis of the deposited data

How the results depend on the processing

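Ikzf2, Ikzf3 and Ikzf4 kept their direction in all 20 other settings of the fit across all genes, Ikzf5 in 19, Foxp3 in 18 and Ikzf1 in 13. Ikzf3 passed in 16 of the 20, Ikzf4 in 9 and Ikzf2 in 2 (0.22 with no low-count filter and 0.30 without WT replicate 2). With single libraries left out, the count of genes called ran from 367 to 1364 (886 with all), the count of the 6 genes called from 1 to 3, and log2 fold changes from -0.0235 to 0.0179 for Ikzf1, 0.15 to 0.30 for Ikzf2 and 0.25 to 0.40 for Ikzf4. The causes of these moves were not tested. T lineage scaling called 1623 genes and 1 of the 6, with Ikzf4 at 0.20 and Ikzf5 at -0.0246. No low-count filter called 1645 genes. Limma on log2(FPKM + 1) called 374 genes and on log2(FPKM + 0.1) 383, each with 1 of the 6, and Ikzf4 at 0.31 and 0.32. Limma on log2(FPKM + 1) with no filter called 15 genes and 0 of the 6, with Ikzf3 at -0.35 and Ikzf4 at 0.31. The B cell score as a covariate called 44 genes and 0 of the 6, with Foxp3 at -0.0364, Ikzf1 at 0.0341, Ikzf3 at -0.18 and Ikzf4 at 0.12. With Cd72 left out of that score, chosen after seeing the data, 77 genes and 0 of the 6 were called, with Foxp3 at -0.0111, Ikzf1 at 0.0277, Ikzf3 at -0.21 and Ikzf4 at 0.15. Neither score overlapped between the groups, so score and group cannot be told apart in these fits. Without WT replicates 1 and 3, 282 genes and 0 of the 6 were called, with Ikzf1 at 0.0112, Ikzf3 at -0.29 and Ikzf4 at 0.24. Upper-quartile factors put Ikzf1 at 0.0212. A threshold of 0.01 called 275 genes and 1 of the 6, and 0.10 called 1412 genes. The log2 difference of Ikzf5 reads per Foxp3 read ran from -0.163 to 0.0504 with single libraries left out, above 0 without KO replicate 6. With GENCODE lengths 2 positions in the order moved in WT replicate 1. No paired analysis was possible because KO and WT libraries share no replicate numbers. The 3 libraries per group and, for Ikzf5, a counting error near 3.6% limit what could be detected.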

Other observations

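The nearest tested protein-coding genes beside each member were read from the same fit. Of these 12 neighbours 0 passed edgeR's test, beside 6.50% of all genes tested. Beside Ikzf4, Rps26, a ribosomal protein gene, stood at 0.0036 (SE 0.0611) on the log2 scale, KO over WT, and Suox, which encodes sulfite oxidase, at -0.0064 (SE 0.0974). Beside Ikzf3, Grb7, an adaptor gene, had 0.01 (SE 0.14) and Zpbp2 had -0.22 (SE 0.31). Ppp1r3f, whose exons share 266 bases with Foxp3 on the opposite strand, had 0.20 (SE 0.08, edgeR adjusted p = 0.149), and Ccdc22, which shares 590 bases with Foxp3, had at most 2 counts in any library. Spag16, beside Ikzf2, had the largest value of the 12, at 1.09 (SE 0.33, edgeR adjusted p = 0.0682).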
